A study of Mus musculus with 30 samples.

Results

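The 10 genes described here, all of the basement membrane, were followed through both RNA-seq experiments of the series. They were taken by symbol: the laminin chains Lama1, Lama5, Lamb1 and Lamc1, the collagen IV chains Col4a1 and Col4a2, the nidogens Nid1 and Nid2, the proteoglycan Hspg2 and the matricellular protein Sparc. All 10 passed the filter on low counts in both tables, and they stood among 16049 genes tested in the time course and 16054 in long culture. The cells were E14tg2a, an established mouse embryonic stem cell (ESC) line that the study's methods describe as kept on gelatinized flasks in medium with serum and the cytokine LIF (Serum/LIF). Enhanced Metabolic Media (EMM) is the same medium with D-galactose in place of D-glucose and pyruvate, and 2i/LIF combines LIF with inhibitors of MEK and GSK3. The time course compared Serum/LIF, labelled 0 h although the treatment protocol speaks of 24 h in that medium, with 3, 9 and 24 h of EMM, in 3 libraries per group and 12 in all. Long culture compared Serum/LIF, EMM and 2i/LIF after 10 or 20 passages (P10 and P20), with 3 libraries for each of 6 groups and 18 in all. No genetic modification is given for any group, and every group came from the same line, so the results describe that line. Median levels of genes on chromosomes 6 and 8 differed in P20 2i/LIF, as given below. The comparisons ask how a change of carbon source and of culture medium moved the messages for this matrix.

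A basement membrane is a thin sheet of extracellular matrix. Laminins are trimers of an alpha, a beta and a gamma chain that assemble on the cell surface: the chains of Lama1, Lamb1 and Lamc1 make laminin-111, and the chains of Lama5, Lamb1 and Lamc1 make laminin-511. Collagen IV made of alpha1 and alpha2 chains, encoded by Col4a1 and Col4a2, forms a covalent network, nidogens and perlecan (encoded by Hspg2) link that network to laminin, and SPARC binds collagen and acts in the handling of collagen IV. In the early embryo the primitive endoderm lays down the first basement membrane beside the epiblast, and its parietal derivative makes large amounts of laminin-111, collagen IV and SPARC. Cultured ESCs also make laminin.

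Total counts ran from 24074132 to 35301962 per time-course library and from 6944918 to 27912959 per passage library. Replicates of a group correlated at 0.994 to 0.996 and at 0.970 to 0.990 across genes on a log scale. Chi-square per degree of freedom, a measure of how far a pair differs beyond sampling noise, was 2.045 to 13.39 and 3.313 to 49.13. No library was therefore taken as a repeat of another, which does not show that the libraries are independent. In the time course the EMM 3 h pairs stood at 2.045 to 2.631 and the Serum/LIF pairs at 9.654 to 11.62. All 8 ESC markers checked, among them Pou5f1, Sox2 and Nanog, were above the floor of 3 counts in every group. Of 6 visceral endoderm markers, Afp and Ttr were at or under that floor in every library. In long culture the summed level of the 6 was highest in 2i/LIF, where only 2 were above the floor at each passage. These were Apoa1 and Hnf4a at P10 and Rbp4 and Hnf4a at P20. In bulk RNA, fewer cells of a type and less RNA per cell cannot be told apart, and this holds for every level below.

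Col4a1 and Col4a2 lie head to head on chromosome 8 (GRCm38): Col4a1 runs on the minus strand from 11198423 to 11312826 and Col4a2 on the plus strand from 11312805 to 11449287. Their annotated first exons therefore share 22 bases. The other members lie apart, Lama1 at chr17:67697259-67822647, Lama5 at chr2:180176373-180225859, Lamb1 at chr12:31265234-31329644, Lamc1 at chr1:153218922-153332786, Nid1 at chr13:13437551-13512269, Nid2 at chr14:19751265-19811787, Sparc at chr11:55394500-55423183 and Hspg2 at chr4:137468769-137570630. Exons on the opposite strand overlap Col4a2 (Gm15419), Nid1 (Gm48682) and Nid2 (Rtraf, over 437 bases), and because no source states that strand was used in counting, reads of these pairs, like those of the 22 bases, may be shared. The stretch around both starts, chr8:11312801-11312830 on the plus strand, is shown because the 2 genes moved together in these data, and the 22 capitals mark the bases that belong to both genes. The other sequences are the bases upstream of Lamb1 (chr12:31265043-31265233), of Nid1 (chr13:13437352-13437550) and of Hspg2 (chr4:137468553-137468768), all on the plus strand and ending before the first annotated start. Lamb1 and Nid1 are shown because they moved in opposite directions, and Hspg2 because it was among the members that rose by the most in EMM. Here capitals mark GGGCGG (GC box) and CCAAT on either strand. The sequences are from RefSeq on GRCm38.p6.
Col4a1 and Col4a2: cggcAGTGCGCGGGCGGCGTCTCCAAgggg
Lamb1: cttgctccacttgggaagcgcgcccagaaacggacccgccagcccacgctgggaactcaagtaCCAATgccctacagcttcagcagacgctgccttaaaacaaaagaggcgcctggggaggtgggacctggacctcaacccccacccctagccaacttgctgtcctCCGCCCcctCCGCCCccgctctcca
Nid1: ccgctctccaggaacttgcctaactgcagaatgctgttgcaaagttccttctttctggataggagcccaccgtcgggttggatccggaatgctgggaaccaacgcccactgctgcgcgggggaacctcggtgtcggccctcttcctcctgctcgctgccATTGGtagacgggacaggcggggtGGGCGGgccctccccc
Hspg2: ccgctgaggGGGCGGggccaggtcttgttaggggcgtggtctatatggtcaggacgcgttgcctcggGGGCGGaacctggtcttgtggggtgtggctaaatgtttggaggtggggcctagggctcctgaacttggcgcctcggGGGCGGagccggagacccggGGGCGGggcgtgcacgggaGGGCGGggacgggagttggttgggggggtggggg

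Windows from 250 bases before to 50 after the RefSeq start were found for 7 of the 10 members: Lama5, Lamb1, Col4a1, Col4a2, Nid1, Sparc and Hspg2. GGGCGG was present on either strand in 6 of them, with 5 matches in Hspg2, 4 in Lama5, 3 in Col4a2, 2 in Lamb1 and 1 each in Col4a1 and Nid1, and 35.7% of all 32851 windows held it. CCAAT had 1 match each in Col4a1, Col4a2, Lamb1 and Nid1, against 37.4% of all windows. The Sparc window held neither, but its RefSeq start, chr11:55420080, lies inside the gene as annotated above and not at its annotated 5' end. GGAATG, the letters of a TEAD site, had 1 match in Nid1 and was held by 14.7% of all windows. None of the 7 held TATAAA, which was in 13.6% of all windows. Nor did any hold TGANTCA, the letters of an AP-1 site (7.81% of all). The letters of a GATA-factor site, AGATAA, were in none of the 7 and in 11.2% of all windows.

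Levels of different genes can be compared only per length, and are given here as normalized counts per kb of exon. Nid2 was highest in 9 of the 10 groups, at 2508 to 3286 per kb in the 4 groups of the time course and, on the separate scale of long culture, at 1005 to 2001 per kb in 5 of its 6 groups. Sparc was highest in P20 2i/LIF, at 1523 ± 118 per kb (SD, n = 3) against 1172 ± 91.7 for Nid2. With the longest transcript as the length, Sparc was also highest in Serum/LIF at P10 and P20, so the order of those 2 genes depends on the length used there. The gamma chain Lamc1 stood at 1761 to 2187 per kb in the time course. Both collagen IV chains were the lowest members in every time-course group, at 122 ± 6.55 per kb for Col4a1 and 67.6 ± 3.09 for Col4a2 in Serum/LIF.

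In the first 24 h of EMM most of these genes went up and Lamb1 went down. Of the 10 members, 7 rose and none fell at 3 h, 7 rose and 1 fell at 9 h, and 8 rose and 1 fell at 24 h against Serum/LIF ("rose" and "fell" mean an adjusted p under 0.01 in edgeR's quasi-likelihood test). Over all genes tested, 34.5% passed in either direction at 3 h, 38.2% at 9 h and 44.0% at 24 h. Those that rose were 16.3%, 18.5% and 21.8%, and those that fell were 18.2%, 19.7% and 22.2%. The 3 comparisons share the same Serum/LIF libraries. The members' median difference on the log2 scale was 0.35 at 3 h and 0.41 at 24 h. The median over all genes was close to 0 in both. With a log2 fold change above 1 required as well, no member passed at 3 h (4.22% of all genes did) or at 9 h (5.55%), and Col4a2 and Hspg2 passed at 24 h (8.18%).

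**Figure D1:**
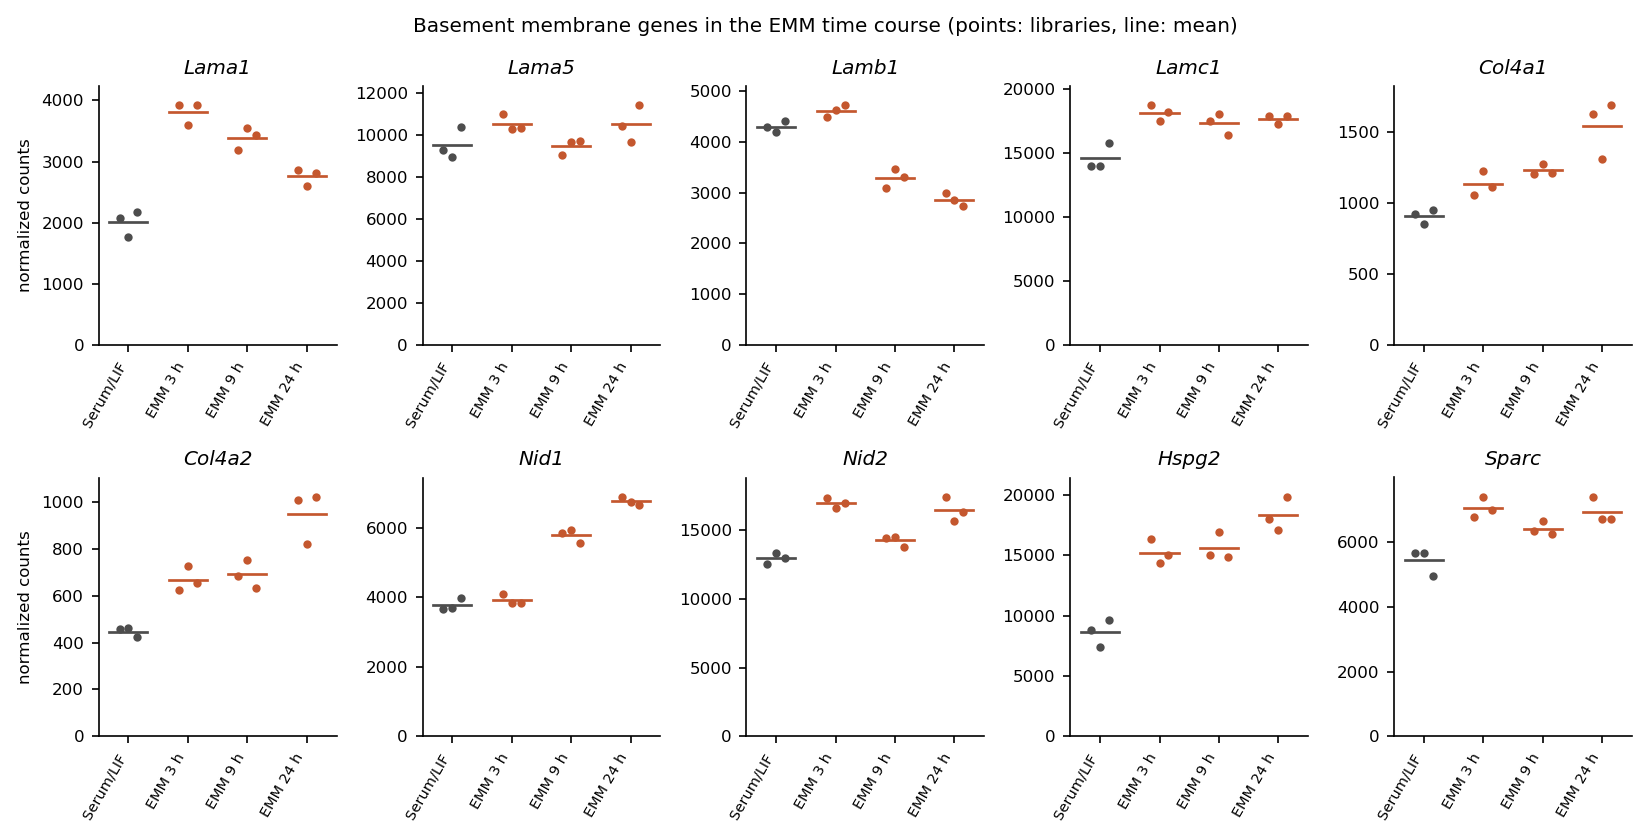
Normalized counts (vertical axes, starting at 0) of the 10 members in each library of the time course, by group along the horizontal axis; points are libraries and lines are the means of 3. Hspg2 and Lama1 were already up at 3 h, Nid1 only from 9 h, Col4a1 and Col4a2 highest at 24 h, and Lamb1 lowest at 24 h.

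Perlecan and the laminin alpha1 chain made the largest early steps. Hspg2 was at 8824, 7429 and 9649 normalized counts in Serum/LIF, at 16320, 14330 and 15020 after 3 h, at 15060, 16960 and 14820 after 9 h, and at 17980, 17100 and 19860 after 24 h. No EMM library overlapped the Serum/LIF libraries. The log2 fold change was 0.82 ± 0.08 (standard error, SE) at 3 h, 0.85 ± 0.08 at 9 h and 1.09 ± 0.09 at 24 h, with an edgeR adjusted p of 1.64e-06, 9.64e-07 and 5.7e-08. Lama1 had 2073, 1766 and 2179 normalized counts in Serum/LIF and 3923, 3606 and 3919 after 3 h, then 3193, 3553 and 3429 after 9 h and 2858, 2603 and 2820 after 24 h. It rose 1.9-fold at 3 h (log2 fold change 0.93 ± 0.07, adjusted p = 4.92e-08) and stood 1.38-fold above Serum/LIF at 24 h. Between 9 and 24 h Lama1 fell by 0.30 on the log2 scale (adjusted p = 0.00495), a call lost without EMM 9 h replicate 2 or 3 or EMM 24 h replicate 2 or 3 (it then fell by 0.26 to 0.31).

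Laminin beta1 went the other way. Lamb1 had 4287, 4200 and 4415 normalized counts in Serum/LIF and 4483, 4632 and 4724 after 3 h, a log2 difference of 0.10 ± 0.05 that did not pass (adjusted p = 0.0833). After 9 h it had 3084, 3472 and 3311 and after 24 h 2987, 2850 and 2743, all below every Serum/LIF library. Lamb1 fell by 0.39 on the log2 scale at 9 h (adjusted p = 6.21e-06) and by 0.59 at 24 h (adjusted p = 6.32e-08). From 3 to 9 h the fall was 0.49 (adjusted p = 1.52e-06). From 9 to 24 h it was 0.20 (adjusted p = 0.00578). That call was lost without any of 4 libraries, EMM 9 h replicates 2 and 3 and EMM 24 h replicates 2 and 3 (fall of 0.16 to 0.20).

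The other laminin chains changed little. Lamc1, the gamma chain shared by both trimers, had 13950, 13980 and 15780 normalized counts in Serum/LIF, and its 9 EMM libraries ranged from 16370 to 18700 without overlap. Its log2 fold change was 0.31 at 3 h, 0.25 at 9 h and 0.28 at 24 h, each ± 0.05 and each past the test. Lama5, the alpha chain of laminin-511, had 8961 to 10390 normalized counts in Serum/LIF and 9039 to 11440 in EMM. Its groups overlapped at every time, and its log2 differences of 0.15, -0.01 and 0.14 did not pass (adjusted p = 0.0672, 0.914 and 0.0662). Without Serum/LIF replicate 3 the 24 h value was 0.22 and passed.

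Both collagen IV chains rose in EMM and were highest at 24 h. Col4a1 was at 920, 853 and 948 normalized counts in Serum/LIF, at 1060, 1228 and 1116 after 3 h, at 1202, 1279 and 1215 after 9 h and at 1632, 1311 and 1691 after 24 h. Col4a2 was at 457, 462 and 424, then at 625, 729 and 654, then at 686, 753 and 635, and at 1008, 820 and 1024 after 24 h. Every EMM library of both genes lay above every Serum/LIF library. The log2 fold change at 24 h was 0.77 ± 0.08 for Col4a1 (adjusted p = 1.72e-06) and 1.09 ± 0.09 for Col4a2 (adjusted p = 1.13e-07). At 3 h Col4a2 had risen by 0.58 and Col4a1 by 0.32 (adjusted p = 0.0052), and the Col4a1 call at 3 h was lost when Serum/LIF replicate 1 or 2 or EMM 3 h replicate 2 or 3 was left out (0.27 to 0.34) and with scaling by library totals (0.26, adjusted p = 0.0228). The step from 9 to 24 h was 0.46 ± 0.09 for Col4a2 (adjusted p = 0.00143), lost only without EMM 24 h replicate 3 (0.40, adjusted p = 0.011). For Col4a1 it was 0.33 ± 0.08 (adjusted p = 0.0092), lost in 5 of the 6 fits that left out 1 library, all but that without EMM 24 h replicate 2, with values down to 0.25 (adjusted p = 0.0587 without EMM 24 h replicate 3).

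The nidogens, which bridge laminin and collagen IV, followed different courses. Nid1 had 3679, 3685 and 3978 normalized counts in Serum/LIF and 4101, 3829 and 3841 after 3 h, with overlapping libraries. It reached 5846, 5934 and 5568 after 9 h and 6900, 6733 and 6650 after 24 h, with no overlap between groups. Its log2 fold change was 0.05 ± 0.04 at 3 h (adjusted p = 0.328), 0.61 ± 0.04 at 9 h (adjusted p = 2.48e-08) and 0.84 ± 0.04 at 24 h (adjusted p = 5.51e-10). Nid2 was at 12560, 13380 and 12990 in Serum/LIF, at 17380, 16620 and 17000 after 3 h, at 14480, 14540 and 13790 after 9 h and at 17460, 15720 and 16330 after 24 h. It rose by 0.39 at 3 h, was 0.14 above Serum/LIF at 9 h (adjusted p = 0.014, not past the test, but past it at 0.18 without Serum/LIF replicate 2 or EMM 9 h replicate 3) and rose by 0.35 at 24 h. From 3 to 9 h Nid2 fell by 0.25 on the log2 scale (adjusted p = 0.00025) while Nid1 rose by 0.56 (adjusted p = 1.92e-07). From 9 to 24 h both rose, Nid1 by 0.23 and Nid2 by 0.21, and the Nid2 call was lost without EMM 9 h replicate 3 (0.18, adjusted p = 0.0121).

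Sparc had 5675, 5670 and 4953 normalized counts in Serum/LIF and between 6233 and 7400 in the 9 EMM libraries, with no overlap. It rose by 0.38 at 3 h, 0.24 at 9 h and 0.35 at 24 h on the log2 scale, each ± 0.06, and the call at 9 h was lost without EMM 9 h replicate 2 (0.21, adjusted p = 0.0138). Between consecutive times fewer members moved. From 3 to 9 h 1 rose and 2 fell, when 26.5% of all genes passed (13.7% higher and 12.9% lower). Without the filter on low counts it was 1 and 4, when 14.9% passed of the larger set of all genes with at least 1 count. From 9 to 24 h 4 rose and 2 fell, when 13.0% passed (7.0% higher and 6.02% lower). No member moved by a log2 fold change above 1 in either step, as 1.75% and 0.573% of all genes did. From 9 to 24 h the number past the test ranged from 2 to 5 when 1 library was left out (8.44 to 12.2% of all genes), with 2 left without EMM 9 h replicate 3 or without EMM 24 h replicate 3, and 3 without EMM 9 h replicate 2.

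Markers of primitive endoderm moved over the same hours. Their summed level ran from 16.6 to 17.7 CPM (counts scaled to a common library size) in Serum/LIF and from 26.6 to 27.4 CPM at 24 h. At 24 h 4 of 9 genes were higher and 2 lower, when 21.8% and 22.2% of all genes were. Sox7, a transcription factor of primitive endoderm, differed most in normalized counts, at 97.8 ± 13.2 and 307 ± 11. Cubn and Amn went down, from 19.6 ± 2.56 to 6.31 ± 3.74 and from 46.6 ± 4.69 to 26.3 ± 0.34. Parietal endoderm markers summed to 67.0 to 72.7 CPM in Serum/LIF and 84.9 to 103 CPM at 24 h, with 3 of 6 tested genes higher, none lower and Stra6 at or under the floor throughout. Most of that sum was Krt19, at 1564 ± 79.7 normalized counts in Serum/LIF and 2141 ± 283 at 24 h. ESC markers summed to 5913 to 6109 CPM and to 5653 to 5872 CPM. Fibroblast markers went down over the same hours, from 62.4 to 64.9 CPM in Serum/LIF to 42.7 to 50.6 CPM at 24 h, with 3 of 5 tested genes lower and none higher. Visceral endoderm markers summed to 2.53 to 3.00 and 1.60 to 2.28 CPM, with 2 of 3 tested genes lower. The part of these in the change of the members was not tested.

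After 10 passages, EMM and Serum/LIF cultures differed in most members. Of the 10 members, 7 rose and 1 fell in P10 EMM against P10 Serum/LIF, when 37.4% of all genes passed (18.7% in each direction). At P20, 2 rose and 1 fell, when 26.0% passed (13.6% higher and 12.5% lower). The counts were 4 and 2 without the filter on low counts, where 14.4% passed of a larger set, all genes with at least 1 count. They were also 4 and 2 with only the groups compared in the fit (40.3% of all genes). With a log2 fold change above 1 required as well, 4 members passed at P10 (17.1% of all genes) and none at P20 (9.63%). The members' median on the log2 scale was 0.74 at P10 and 0.30 at P20, and the median over all genes was 0.01 at P10 and close to 0 at P20. The difference between the P20 and P10 contrasts was itself tested and passed for 6 members, of which 5 were lower and 1 higher at P20 (14.7% of all genes passed).

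**Figure D2:**
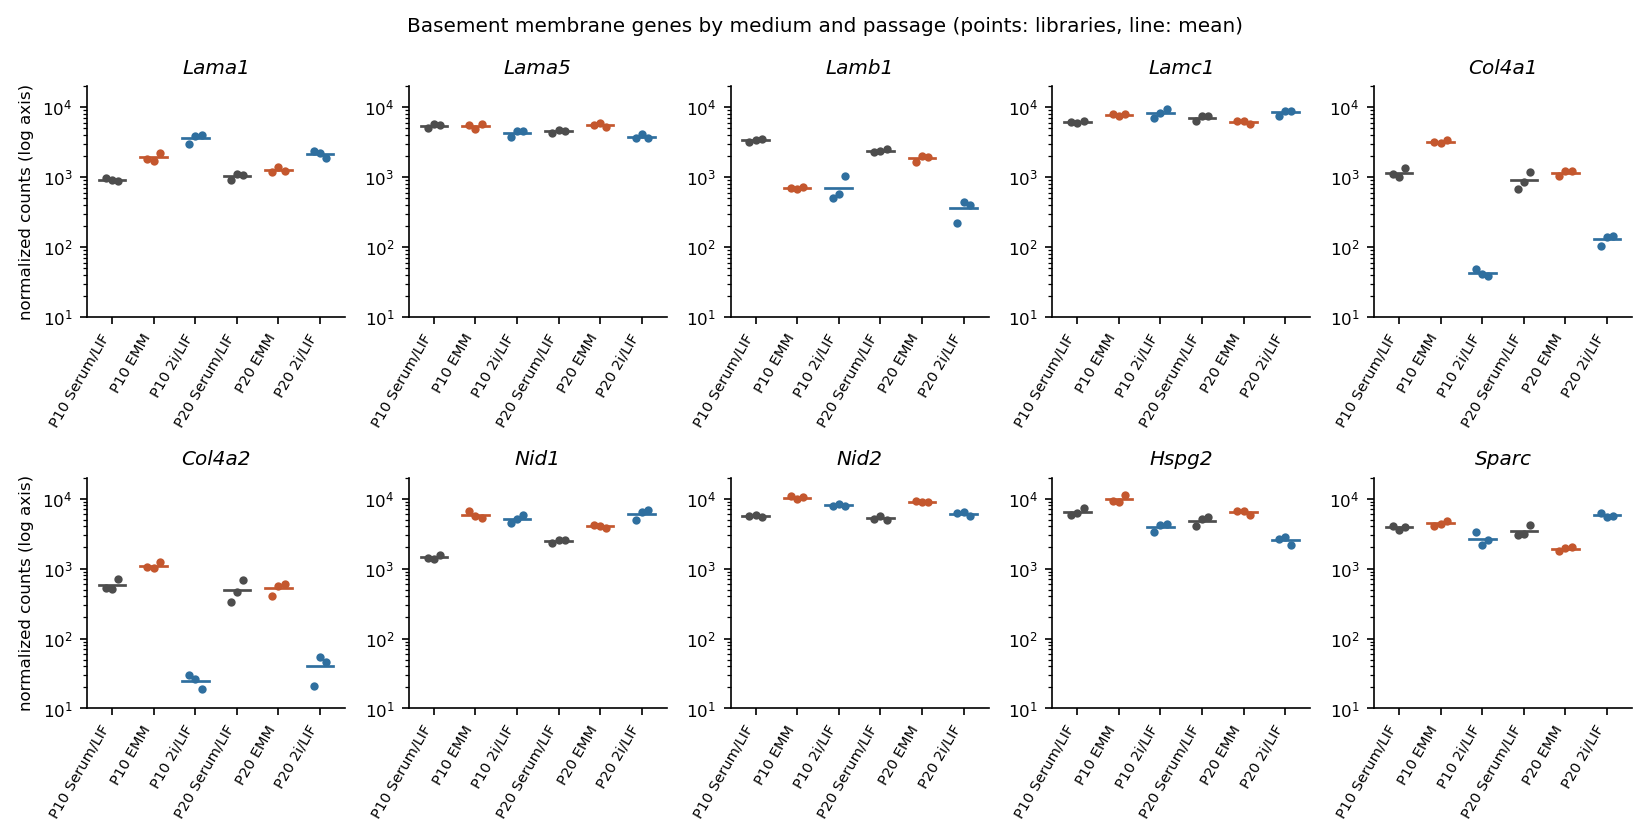
Normalized counts on a log axis (vertical) of the 10 members in each library of long culture, by medium and passage along the horizontal axis; points are libraries and lines are the means of 3. Col4a1 and Col4a2 were far lower in 2i/LIF than in the other media, Lama1 and Nid1 were lowest in Serum/LIF, and Lamb1 was low in P10 EMM and in 2i/LIF.

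Laminin beta1 gave the largest fall between EMM and Serum/LIF. Lamb1 had 3205, 3404 and 3505 normalized counts in P10 Serum/LIF and 698, 676 and 731 in P10 EMM, with no overlap (log2 fold change -2.27 ± 0.21, edgeR adjusted p = 6.48e-08). In P20 EMM it was at 1657, 1985 and 1923, against 2246, 2337 and 2478 in P20 Serum/LIF. Those libraries did not overlap either, but the log2 difference of -0.34 ± 0.19 did not pass (adjusted p = 0.175). The change of the contrast with passage was 1.92 ± 0.28 on the log2 scale (adjusted p = 6.57e-05), and within EMM Lamb1 rose 2.65-fold from P10 to P20 (adjusted p = 4.07e-05).

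The laminin alpha1 chain was raised in P10 EMM. Lama1 had 966, 908 and 876 normalized counts in P10 Serum/LIF and 1833, 1685 and 2211 in P10 EMM (log2 fold change 1.05 ± 0.13, adjusted p = 1.65e-06). At P20 the values were 913, 1103 and 1075 in Serum/LIF and 1175, 1393 and 1240 in EMM, without overlap but not past the test (0.30 ± 0.12, adjusted p = 0.0612). The contrast fell by 0.75 on the log2 scale from P10 to P20 (adjusted p = 0.00397), a call lost in 7 of the 12 fits that left out 1 library, among them those without P10 EMM replicate 3 (fall of 0.65) and without P20 EMM replicate 1 or P20 Serum/LIF replicate 2 (fall of 0.70 in each). Lamc1 was at 6158, 5899 and 6390 in P10 Serum/LIF and at 7889, 7388 and 8047 in P10 EMM. Its log2 fold change of 0.34 ± 0.10 passed narrowly (adjusted p = 0.00759) and was lost in all 6 fits that left out 1 library (0.31 to 0.38). It was also lost with DESeq2 size factors, library totals, no filter or a filter of 10 counts in every library (0.24 to 0.31). At P20 its libraries overlapped (-0.21 ± 0.10, adjusted p = 0.0985). Lama5 had 4951 to 5730 in P10 Serum/LIF and 4872 to 5812 in P10 EMM, with a log2 difference of 0.00 ± 0.09, and at P20 it was 0.29 ± 0.09 higher in EMM without passing (adjusted p = 0.018).

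Collagen IV was higher in P10 EMM than in any other group of long culture. Col4a1 had 1106, 1011 and 1359 normalized counts in P10 Serum/LIF against 3169, 3049 and 3434 in P10 EMM, a rise of 2.78-fold (log2 fold change 1.47 ± 0.16, adjusted p = 4.01e-07). Col4a2 had 524, 511 and 703 against 1048, 1033 and 1230, a rise of 1.9-fold (0.93 ± 0.22, adjusted p = 0.00166), lost without P10 Serum/LIF replicate 2 (0.85, adjusted p = 0.0123). By P20 both genes overlapped between the media. P20 Serum/LIF held 667, 850 and 1196 normalized counts of Col4a1 and P20 EMM held 1039, 1216 and 1226 (0.36 ± 0.16, adjusted p = 0.0719). Without P20 Serum/LIF replicate 3, the highest of its group, the Col4a1 difference was 0.61 and passed, and without replicate 1 it was 0.18. For Col4a2 the difference at P20 was 0.10 ± 0.22 (adjusted p = 0.749), and without P20 Serum/LIF replicate 3, its highest library, it was 0.41. Within EMM, Col4a1 fell by 1.47 and Col4a2 by 1.06 on the log2 scale from P10 to P20 (adjusted p = 1.4e-06 and 0.000869).

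Nidogens were the members that rose at both passages. Nid1 had 1430, 1382 and 1578 normalized counts in P10 Serum/LIF and 6549, 5658 and 5248 in P10 EMM, a rise of 3.98-fold (log2 fold change 1.99 ± 0.12, adjusted p = 3.55e-10). At P20 it had 2297, 2583 and 2578 in Serum/LIF and 4130, 4067 and 3787 in EMM, a rise of 1.61-fold (0.68 ± 0.12, adjusted p = 0.000157). The contrast shrank by 1.31 ± 0.17 on the log2 scale (adjusted p = 1.36e-05), and Nid1 both fell within EMM (by 0.54) and rose within Serum/LIF (by 0.77, adjusted p = 0.00037). Of the 10 members 1, Nid1, passed the test between P10 and P20 Serum/LIF, a comparison in which 6.01% of all genes passed (3.16% higher and 2.85% lower, and 1.84% with a log2 fold change above 1). Lamb1 was lower in every P20 than in every P10 Serum/LIF library without passing (-0.52 ± 0.19, adjusted p = 0.0777). The count was 2 with only the groups compared (14.2% of all genes). It was 4 without the filter (6.14% of the larger set of all genes with at least 1 count). Nid2 was steadier, at 5677, 5804 and 5519 in P10 Serum/LIF and 10840, 9774 and 10450 in P10 EMM, then at 5075, 5638 and 4890 and at 9093, 8787 and 8964 at P20. Its log2 fold change was 0.87 ± 0.07 at P10 and 0.78 ± 0.07 at P20, and the difference between them, -0.09 ± 0.10, did not pass (adjusted p = 0.575).

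Perlecan and Sparc completed the contrast. Hspg2 had 5866, 6187 and 7362 normalized counts in P10 Serum/LIF and 9282, 9045 and 11140 in P10 EMM (log2 fold change 0.60 ± 0.13, adjusted p = 0.000929). At P20 it had 4003, 5033 and 5488 against 6687, 6745 and 5888, without overlap and without passing (0.41 ± 0.13, adjusted p = 0.0182). Sparc was at 4054, 3578 and 3984 in P10 Serum/LIF and 4087, 4342 and 4799 in P10 EMM, a difference of 0.19 ± 0.13 that did not pass (adjusted p = 0.261). In P20 EMM it was at 1767, 1948 and 2001 against 3020, 3092 and 4226 in P20 Serum/LIF. Sparc fell by 0.85 on the log2 scale there (adjusted p = 7.18e-05) and by 1.21 within EMM from P10 to P20 (adjusted p = 2.54e-06). Within EMM the P20 libraries held less than the P10 libraries for 7 of the 10 members, and more for Lamb1, past the test (25.3% of all genes passed, 13.3% higher and 11.9% lower). With a log2 fold change above 1 required as well, 4 members passed (8.54% of all genes). Of the 7, Lamc1 (adjusted p = 0.00903) was lost in each of the 6 fits without 1 library, with falls of 0.29 to 0.38, and Hspg2 was lost without P20 EMM replicate 3 (fall of 0.55, adjusted p = 0.0108).

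Markers of other cell types differed between the same groups. Fibroblast markers summed to 145 to 173 CPM in P10 Serum/LIF and 242 to 488 CPM in P20 Serum/LIF, to 17.1 to 22.5 and 9.77 to 12.9 CPM in EMM, and to 2.85 to 4.19 and 5.62 to 6.23 CPM in 2i/LIF. In P10 EMM, 5 of the 7 (Col1a2, Col3a1, Postn, Dcn and Lum) were at or under the floor, and Lum was at or under it in both Serum/LIF groups. Col1a1, the alpha1 chain of collagen I, had 1895 ± 289 normalized counts in P10 Serum/LIF and 10.8 ± 6.87 in P10 EMM. Parietal endoderm markers summed to 111 to 194 CPM in P10 Serum/LIF, 16.7 to 20.7 in P10 EMM and 42.9 to 55.1 in P10 2i/LIF, with Stra6 at or under the floor in both of the latter and Pth1r in P10 2i/LIF. Primitive endoderm markers summed to 15.2 to 19.1, 8.19 to 9.20 and 6.38 to 7.34 CPM in the same 3 groups, with Sox7 at or under the floor in P10 2i/LIF. At P20 primitive endoderm markers summed to 19.3 to 28.7 CPM in Serum/LIF, 20.6 to 31.9 in EMM and 5.33 to 9.19 in 2i/LIF. Parietal endoderm markers summed to 109 to 114, 33.5 to 41.9 and 14.7 to 18.9 CPM in the same order. Visceral endoderm markers summed to 2.68 to 4.06, 1.14 to 1.64 and 9.99 to 17.8 CPM in Serum/LIF, EMM and 2i/LIF at P10 and to 3.55 to 4.53, 1.72 to 2.28 and 6.73 to 9.61 CPM at P20. Of the 2 tested, 1 was higher and 1 lower in 2i/LIF than in Serum/LIF at each passage (26.4% and 25.6% of all genes at P10, 21.0% and 23.2% at P20). Trophectoderm markers summed to 31.8 to 38.7, 9.96 to 16.4 and 23.3 to 26.6 CPM at P10 and to 26.7 to 46.2, 10.7 to 11.4 and 8.78 to 16.3 CPM at P20, in the same order. ESC markers summed to 5009 to 5235, 5932 to 7550 and 4214 to 5225 CPM in Serum/LIF, EMM and 2i/LIF at P10, and to 5618 to 5980, 4663 to 4751 and 4955 to 6591 CPM at P20. From P10 to P20 in EMM, where 7 members fell, 13.3% of all genes were higher and 11.9% lower. Of the markers, 3 of 8 primitive and 3 of 7 parietal endoderm markers rose with none lower, and 4 of 8 ESC markers fell with none higher. Their part in the levels of the members was not tested.

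In 2i/LIF the matrix genes split. Against Serum/LIF, 4 members rose and 6 fell at P10, when 52.0% of all genes passed (26.4% higher and 25.6% lower). At P20, 3 rose and 4 fell, when 44.2% passed (21.0% higher and 23.2% lower). EMM stood above 2i/LIF for 6 members and below for 1 at P10, when 45.1% of all genes passed (22.9% higher and 22.2% lower). At P20 it stood above for 6 and below for 4, when 48.6% passed (25.7% higher and 22.9% lower). With a log2 fold change above 1 required as well, 5 members passed in P10 2i/LIF against Serum/LIF (26.4% of all genes), 3 in P10 EMM against 2i/LIF (22.1%) and 5 at P20 (25.3%). In P20 2i/LIF against Serum/LIF 2 members were higher and 3 lower past that threshold (22.3% of all genes). The EMM, 2i/LIF and Serum/LIF libraries of a passage are shared between these comparisons. The members' median in 2i/LIF against Serum/LIF was -0.43 at P10 and -0.01 at P20 on the log2 scale.

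**Figure D3:**
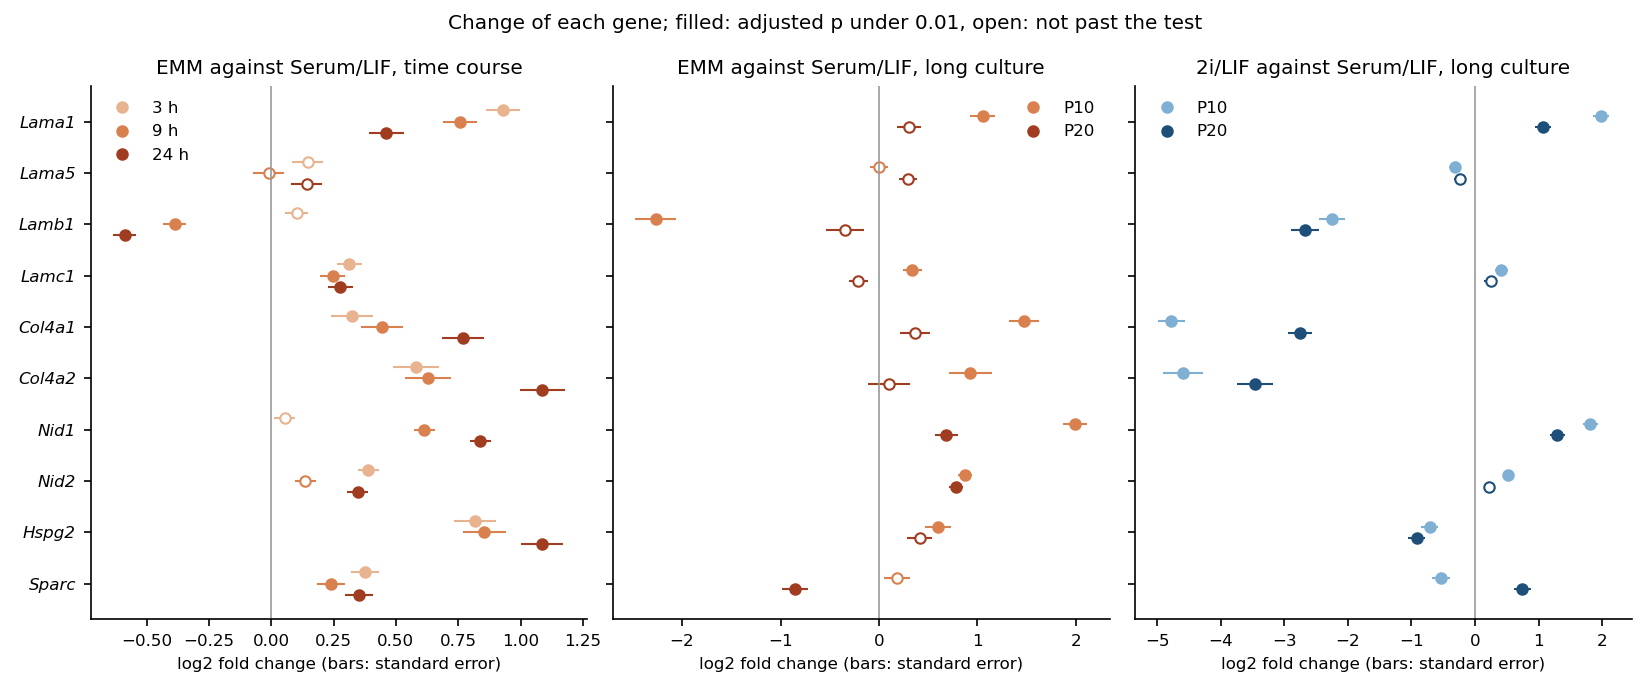
Log2 fold change (horizontal, with standard errors as bars) of each member in EMM against Serum/LIF over 24 h, in EMM against Serum/LIF at P10 and P20, and in 2i/LIF against Serum/LIF at P10 and P20. Filled points passed an adjusted p of 0.01; the 3 panels have different horizontal scales, and collagen IV in 2i/LIF lies at -4.78 to -2.75.

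Collagen IV messages were nearly lost in 2i/LIF. Col4a1 had 48.7, 40.7 and 39.1 normalized counts in the 3 P10 2i/LIF libraries, against at least 1011 in P10 Serum/LIF and 3049 in P10 EMM. Col4a2 had 29.8, 26.1 and 18.7. The log2 fold change against Serum/LIF was -4.78 ± 0.22 for Col4a1 and -4.60 ± 0.31 for Col4a2 (edgeR adjusted p = 2.73e-12 and 6.22e-10), and EMM was 76.1-fold and 46-fold above 2i/LIF. No other member differed by as much in any comparison of media. At P20 Col4a1 was at 103, 141 and 144 and Col4a2 at 21.2, 53.9 and 46.0, still below every library of the other media. P20 EMM then exceeded P20 2i/LIF 8.69-fold for Col4a1 and 11.8-fold for Col4a2 (adjusted p = 7.61e-11 and 3.91e-09).

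Within 2i/LIF, Col4a1 rose 3.16-fold from P10 to P20 (log2 fold change 1.66 ± 0.25, adjusted p = 3.7e-05), while for Col4a2 the libraries overlapped (0.90 ± 0.40, adjusted p = 0.0794). The EMM to 2i/LIF contrast shrank by 3.13 on the log2 scale for Col4a1 (adjusted p = 2.26e-07) and by 1.97 for Col4a2 (adjusted p = 0.00181). The Col4a2 call was lost without P10 2i/LIF replicate 3 (1.74, adjusted p = 0.012) or P20 2i/LIF replicate 2 (1.72, adjusted p = 0.0141). Genes of chromosome 8, which carries both collagen IV genes, differed by a median of 0.32 on the log2 scale over 833 genes from P10 to P20 2i/LIF and by 0.45 in P20 2i/LIF against P20 Serum/LIF, and each of the 3 P20 2i/LIF libraries showed it (0.35 to 0.41 against P10 Serum/LIF). Chromosome 6, which carries no member, differed by medians of 0.18 and 0.33 in the same comparisons. The part of the chromosome 8 shift in the Col4a1 and Col4a2 values was not tested.

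Laminin chains went in different directions in 2i/LIF. Lama1 was highest there, with 2978, 3885 and 4025 normalized counts at P10 and 2380, 2238 and 1875 at P20, above every library of both other media at the same passage. It rose 3.96-fold against Serum/LIF at P10 (adjusted p = 2.5e-10) and 2.1-fold at P20 (adjusted p = 9.03e-07). Lamb1 was low, with 502, 575 and 1019 at P10 and 223, 444 and 399 at P20. Its log2 fold change against Serum/LIF was -2.25 ± 0.21 at P10 and -2.67 ± 0.21 at P20 (adjusted p = 3.09e-08 and 7.05e-09). Against EMM, Lamb1 did not differ past the test at P10, with overlapping libraries (-0.02 ± 0.21, adjusted p = 0.954), and EMM was 5.03-fold higher at P20 (adjusted p = 2.84e-08). Within 2i/LIF it fell by 0.94 on the log2 scale from P10 to P20 (adjusted p = 0.00172), a value set largely by P10 2i/LIF replicate 3, without which the fall was 0.55 (adjusted p = 0.0197).

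Lamc1 was kept in 2i/LIF, at 6975, 8221 and 9391 normalized counts at P10 and 7507, 8715 and 8876 at P20. It rose by 0.42 ± 0.10 against P10 Serum/LIF (adjusted p = 0.00116, lost without P10 2i/LIF replicate 3, 0.31 and adjusted p = 0.0117), and its 0.24 ± 0.10 at P20 did not pass (adjusted p = 0.0394). Lama5 was at 3786, 4567 and 4617 at P10 and at 3649, 4182 and 3555 at P20. It fell by 0.32 on the log2 scale against P10 Serum/LIF (adjusted p = 0.00643), lost without P10 2i/LIF replicate 1 or P10 Serum/LIF replicate 2 or 3 (fall of 0.23 to 0.30). At P20 its difference of -0.24 ± 0.09 did not pass (adjusted p = 0.0354). EMM was above 2i/LIF in Lama5 by 0.53 ± 0.09 at P20 (adjusted p = 7.86e-05) and by 0.32 ± 0.09 at P10 (adjusted p = 0.00726), where the call was lost without P10 2i/LIF replicate 1 or P10 EMM replicate 1 or 3 (0.23 to 0.30).

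Nid1 was high in 2i/LIF as in EMM. It had 4522, 5090 and 5771 normalized counts at P10, overlapping P10 EMM (0.18 ± 0.12 for EMM against 2i/LIF, adjusted p = 0.187) and 3.51-fold above Serum/LIF (adjusted p = 4.29e-10). At P20 it had 4873, 6405 and 6933, above every EMM library, and EMM was lower by 0.61 on the log2 scale (adjusted p = 0.000188). Nid2 in 2i/LIF lay between the other media at P10, with 7869, 8451 and 7913, each pair of media differing past the test. Its 6168, 6475 and 5543 at P20 overlapped Serum/LIF (0.22 ± 0.07, adjusted p = 0.0136, past the test at 0.28 without P20 2i/LIF replicate 3 or P20 Serum/LIF replicate 2), and EMM was above by 0.56 ± 0.07 (adjusted p = 2.03e-06).

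Hspg2 was lowest in 2i/LIF at both passages, with 3324, 4162 and 4349 normalized counts at P10 and 2657, 2832 and 2199 at P20. EMM was 2.49-fold above it at P10 and 2.51-fold at P20 (adjusted p = 1.58e-07 and 1.07e-07), and the difference between these contrasts was 0.02 ± 0.19 (adjusted p = 0.96). Sparc turned over with passage. In P10 2i/LIF it had 3288, 2184 and 2549 and was below Serum/LIF by 0.54 on the log2 scale (adjusted p = 0.00197), a call lost without P10 2i/LIF replicate 2 (fall of 0.41) or replicate 3 or without P10 Serum/LIF replicate 1 (falls of 0.50 and 0.49). In P20 2i/LIF it had 6273, 5431 and 5603, above every library of the other groups of long culture. It rose 2.16-fold from P10 to P20 within 2i/LIF (adjusted p = 4.87e-06), while within EMM it fell by 1.21 on the log2 scale. EMM was 1.65-fold above 2i/LIF at P10 and at 0.331 of it at P20 (adjusted p = 0.000173 and 1.14e-08). Of the 10 members, 2 rose and 4 fell within 2i/LIF from P10 to P20 (2 and 2 with only the groups compared, where Lamb1 and Nid2 did not pass and 13.1% of all genes did), when 28.3% of all genes passed (13.1% higher and 15.2% lower), and 2 passed with a log2 fold change above 1 (10.1% of all genes). The change of the EMM to 2i/LIF contrast with passage passed for 5 members (32.3% of all genes), and that of the 2i/LIF to Serum/LIF contrast for 3 (20.0%). The latter count was 5 at an adjusted p under 0.05 (33.9% of all genes). It was also 5 without the filter (12.4% of the larger set of all genes with at least 1 count).

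Chains of a family were also compared within each library, as ratios per kb of exon, which do not depend on library scaling. Lama1 to Lama5, the alpha chains of laminin-111 and laminin-511, stood at 0.247 ± 0.015 in time-course Serum/LIF (SD, n = 3), 0.425 ± 0.017 after 3 h of EMM, 0.42 ± 0.010 after 9 h and 0.309 ± 0.017 after 24 h. In long culture it was 0.201 ± 0.025 in P10 Serum/LIF, 0.415 ± 0.029 in P10 EMM and 0.984 ± 0.052 in P10 2i/LIF. At P20 Serum/LIF and EMM overlapped, at 0.27 ± 0.012 and 0.272 ± 0.016, and 2i/LIF was at 0.672 ± 0.082. The alpha1 message came near the level of the alpha5 message in P10 2i/LIF alone among the 10 groups.

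Lamb1 to Lamc1 fell from 0.247 ± 0.012 in Serum/LIF to 0.213, 0.159 and 0.135 at 3, 9 and 24 h, with no overlap between any 2 of the 4 groups. It was 0.458 ± 0.024 in P10 Serum/LIF, 0.0753 ± 0.0013 in P10 EMM and 0.0696 ± 0.018 in P10 2i/LIF, where the libraries (0.0583 to 0.0905) overlapped those of EMM (0.0738 to 0.0764). At P20 it was 0.279, 0.254 and 0.0349 in Serum/LIF, EMM and 2i/LIF, with Serum/LIF and EMM overlapping. The Lamb1 length differs most between annotated transcripts (9917 bases of exon, 5784 in the longest transcript), which scales this ratio alike in every library. Lamc1 to Col4a1 was 4.84 ± 0.54 in P10 Serum/LIF, 2.18 ± 0.07 in P10 EMM and 176 ± 44 in P10 2i/LIF. At P20 it was 7.36 ± 1.58, 4.79 ± 0.69 and 59.0 ± 5.65 in the same order. Col4a1 to Col4a2 stayed between 1.38 and 1.98 in every time-course library, in P10 2i/LIF and in both Serum/LIF groups, and was 2.48 to 2.68 in P10 EMM, 1.79 to 2.27 in P20 EMM and 2.32 to 4.34 in P20 2i/LIF. The 4.34 is from P20 2i/LIF replicate 1, with 9 counts of Col4a2, and the other 2 libraries stood at 2.32 and 2.77. These ratios are given without a test: an exact permutation test of 3 libraries against 3 cannot go below 0.10, and no other test was run on them.

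**Figure D4:**
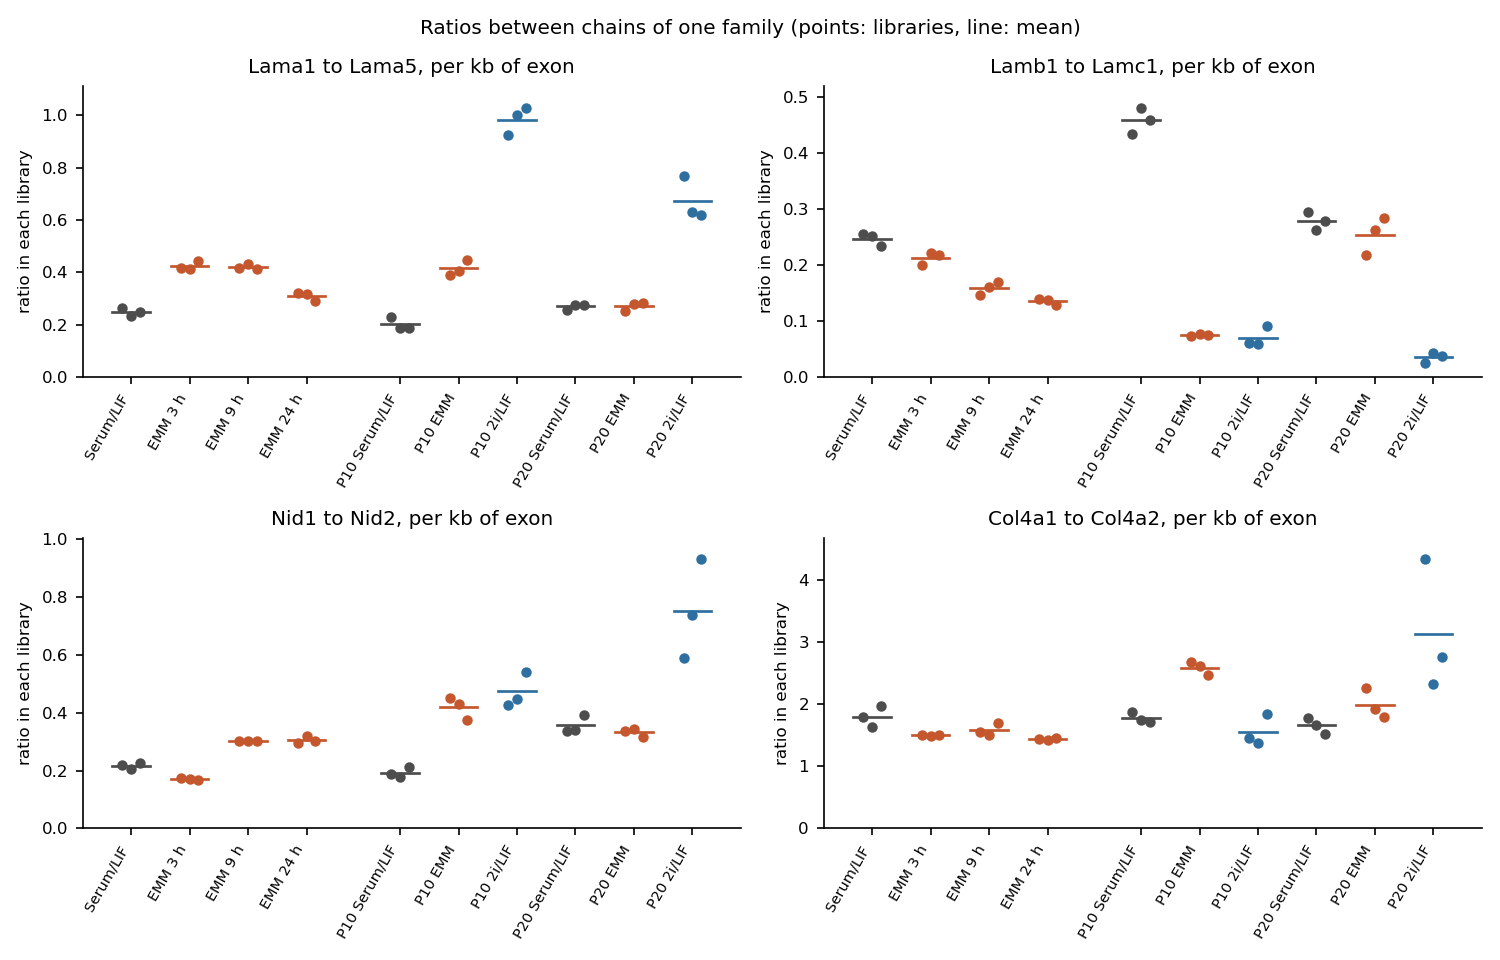
Ratio of 2 chains in each library (vertical axes from 0, per kb of exon) for Lama1 to Lama5, Lamb1 to Lamc1, Nid1 to Nid2 and Col4a1 to Col4a2, by group along the horizontal axis; points are libraries and lines are means of 3. Lama1 to Lama5 was highest in 2i/LIF, and Lamb1 to Lamc1 was lowest in P20 2i/LIF, overlapped between P10 EMM and P10 2i/LIF, and declined over the time course.

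How the members moved with each other is described by correlations of log2 CPM, given without a test because libraries of a group share their medium. Over the 12 time-course libraries, 9 of the 10 members had a positive correlation with the mean of the other members, from 0.45 for Nid1 to 0.94 for Hspg2, and Lamb1 had -0.49. Col4a1 and Col4a2 correlated at 0.97, and Lamb1 and Nid1 at -0.96. Over the 18 libraries of long culture the collagen IV pair stayed at 0.98 and Lamb1 and Nid1 at -0.84, but the correlation with the other members ranged from -0.23 for Sparc to 0.75 for Hspg2. Genes outside the list whose log2 CPM was most like the members' mean were Nog (0.98), Dact2, Ankrd33b, Fam167a and Snx30 in the time course, and Polr3a (0.95), Arhgef38, Unkl, Pla2g7 and D16Ertd472e in long culture.

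Other genes of the same matrix were read from lists, and their counts stand against the shares over all genes: 18.5% higher and 19.7% lower at 9 h, 21.8% higher and 22.2% lower at 24 h, 18.7% in each direction in P10 EMM and 13.6% and 12.5% in P20 EMM against Serum/LIF, 26.4% and 25.6% in P10 and 21.0% and 23.2% in P20 2i/LIF against Serum/LIF, and 22.9% and 22.2% at P10 and 25.7% and 22.9% at P20 for EMM against 2i/LIF. Of 7 further laminin and collagen IV chains tested, 3 rose and 1 fell after 24 h of EMM. Lama3, a laminin alpha chain, fell from 157 to 118 normalized counts. In long culture 1 rose and 4 fell in P10 EMM against Serum/LIF, none rose and 3 fell at P20, and against 2i/LIF EMM gave 2 higher and 1 lower at P10 and 2 of each at P20. In 2i/LIF against Serum/LIF 1 rose and 5 fell at P10 and 2 rose and 4 fell at P20. Lamb2, the other widespread beta chain, rose in P10 EMM and in 2i/LIF at both passages against Serum/LIF: it had 543 ± 55.5 normalized counts in P10 Serum/LIF, 766 ± 41.2 in P10 EMM and 842 ± 24.5 in P10 2i/LIF, and 467 ± 21.5 and 1118 ± 223 in P20 Serum/LIF and 2i/LIF. Col4a5 was at 84.4 ± 21.5 in P10 Serum/LIF and 9.00 ± 8.21 in P10 EMM.

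Of 12 other basement membrane components tested in the time course, 7 rose and 1 fell at 24 h: Tinagl1 rose 3.99-fold to 516 ± 8.67 normalized counts, and Smoc1 fell from 1336 to 957. In long culture 11 were tested, and none rose and 5 fell in P10 EMM against Serum/LIF, with Frem2, a protein of the Fraser complex, at 485 ± 92.9 and 102 ± 8.52. At P20 2 rose and 2 fell, and Frem2 was then higher in EMM, at 614 ± 51.3 against 271 ± 63.4. EMM against 2i/LIF gave 4 genes in each direction at P10, and 6 higher with none lower at P20. In 2i/LIF against Serum/LIF 2 rose and 6 fell at P10, with fibulin-1 (Fbln1) up from 597 ± 7.64 to 1901 ± 240, and none rose and 5 fell at P20, with Col18a1, the core of collagen XVIII, down from 5885 ± 283 to 661 ± 103.

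Genes for the folding and secretion of collagen moved in both directions. Of 14 tested, 6 rose and 2 fell at 9 h, 2 rose and 3 fell at 24 h, 4 rose and 3 fell in P10 EMM against Serum/LIF, 5 and 2 at P20, and 6 rose and 6 fell in P10 2i/LIF against Serum/LIF, 6 and 5 at P20. EMM against 2i/LIF gave 5 higher and 5 lower at P10 and 6 and 5 at P20. Serpinh1, the collagen chaperone HSP47, was lower in P10 EMM than in P10 Serum/LIF (349 ± 52.0 against 1636 ± 42.8) although collagen IV was higher there, and Plod1, a collagen lysyl hydroxylase, was higher (841 ± 52.2 against 413 ± 44.4). Fkbp10, a collagen chaperone, was at 629 ± 23.9 in P10 Serum/LIF and 25.5 ± 13.8 in P10 2i/LIF, and P4ha2, a collagen prolyl hydroxylase subunit, was 8.55-fold higher in P20 EMM than in P20 2i/LIF.

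Genes of matrix cross-linking and turnover were low in 2i/LIF. Of 15 tested, 2 rose and 13 fell in P10 2i/LIF against Serum/LIF and 1 rose and 13 fell at P20, while EMM against 2i/LIF gave 11 higher and 1 lower at P10 and 10 and 3 at P20. Against Serum/LIF their median difference on the log2 scale was -4.47 at P10, where the median over all genes was close to 0. Pxdn, the peroxidase that forms cross-links in collagen IV, was at 16.1 ± 3.27 normalized counts in P20 2i/LIF, 671 ± 159 in P20 Serum/LIF and 695 ± 45.3 in P20 EMM, and Loxl2, a lysyl oxidase that acts on collagen IV, was 36.2-fold higher in P10 EMM than in P10 2i/LIF. EMM against Serum/LIF gave 2 higher and 11 lower at P10, with Loxl2 at 1196 ± 126 against 663 ± 70.3 and Bmp1, a procollagen proteinase, at 40.7 ± 11.5 against 618 ± 39.5. At P20 it was 1 and 7, and at 24 h of the time course 5 and 3, with Timp3, a metalloproteinase inhibitor, up 1.63-fold and Mmp9 down to 0.374 of Serum/LIF.

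Of 12 basement membrane receptors, 3 rose and 3 fell at 24 h, near the 21.8% and 22.2% of all genes, with the laminin receptor subunit Itgb4 up 1.37-fold and the heparan sulfate proteoglycan Sdc1 at 0.538 of Serum/LIF. In P10 EMM against Serum/LIF 2 rose and 4 fell, with Itga3, a subunit of a receptor for laminin-511, at 734 ± 5.84 against 2883 ± 194, and in P10 2i/LIF it was at 202 ± 4.82. Sdc4, another such proteoglycan, was highest in 2i/LIF, at 5816 ± 758 in P10 2i/LIF, 2492 ± 225 in P10 EMM and 1127 ± 67.1 in P10 Serum/LIF. At P20 1 receptor rose and 4 fell in EMM against Serum/LIF. In 2i/LIF against Serum/LIF 2 rose and 8 fell at P10 and 2 rose and 5 fell at P20, and EMM against 2i/LIF gave 7 higher and 3 lower at P10 and 3 and 4 at P20.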

How the data were processed

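RNA-seq of mouse E14tg2a ESCs was analysed in 30 libraries, 3 for each of 10 groups, each taken by the study's methods as a biological replicate from an independent experiment. For the time course the authors deposited raw counts per gene, whole numbers without normalization, for which the submitters' processing notes name STAR, featureCounts, DESeq2 and mm10. For long culture the authors deposited estimated counts, for which the notes name STAR, Salmon, DESeq2 and mm10. The methods instead name HTSeq and a count of reads at introns and exons, and which class the time-course table holds is not given in the sources used here. Of the estimated counts 9.982% were not whole and were rounded. Time-course libraries were made with a kit not stated to keep strand and long-culture libraries with a directional kit.

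Genes were filtered with filterByExpr, scaled by TMM and tested in 1 quasi-likelihood model per table (edgeR 4.0.16 in R 4.3.3), with Benjamini-Hochberg adjustment over all genes and a threshold of 0.01. Standard errors are the size of the log2 fold change over the square root of the test's F. The design had been written for counts, and that test was kept for the rounded values. A normalized count is the count over the library's effective size after TMM, times the mean of that size in the table, so levels of the 2 tables are not compared. Gene positions and lengths are from GENCODE M21 (GRCm38). With total counts of 6944918 to 35301962 per library, the lowest members (Col4a1 and Col4a2 in 2i/LIF) rest on few counts. The floor of 3 counts covers counting error only. Scripts were tested on simulated data. Alternatives were other scalings (DESeq2 size factors, library totals, chromosomes 6 and 8 left out), filters, thresholds, DESeq2 1.42.0, a replicate block, fits of only the groups compared, no rounding, and each library left out.

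The members and gene lists were chosen with earlier results of these data known. By the rule for named genes, all 10 members are named in every comparison, and of each other list the genes that rose and fell most past the test, with a mean of at least 50 normalized counts in a group, at 24 h and between media at each passage. The text gives a part of these, and some genes of the lists are not reported here. Of the marker lists, trophectoderm summed to 17.8 to 18.6 CPM in Serum/LIF and 23.5 to 25.0 CPM at 24 h, with 2 of 5 tested genes higher and 1 lower (21.8% and 22.2% of all genes).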

Additional observations from a re-analysis of the deposited data

Results flagged for a closer look

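For 14 pairs of member and contrast, the effect of a medium differed between P10 and P20 by edgeR's test of the difference itself, and these are given as values. For EMM against Serum/LIF the log2 difference of P20 from P10 was 1.92 for Lamb1, -0.75 for Lama1, -0.55 for Lamc1, -1.11 for Col4a1, -1.31 for Nid1 and -1.04 for Sparc. The Lamc1 value lost its call in 10 of the 12 fits that left out 1 library (-0.58 to -0.49 there) and the Lama1 value in 7 (-0.74 to -0.65). For EMM against 2i/LIF it was 2.35 for Lamb1, -3.13 for Col4a1, -1.97 for Col4a2, -0.79 for Nid1 and -2.32 for Sparc. For 2i/LIF against Serum/LIF it was -0.92 for Lama1, 2.02 for Col4a1 and 1.28 for Sparc. The contrasts share libraries, so they are not independent of each other. Chromosome 8 as a whole, which carries Col4a1 and Col4a2, had a median of -0.28 in the second of these differences and 0.39 in the third, and its part in them was not tested.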

How the results depend on the processing

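Over all alternatives, 2480 of 2638 log2 fold changes of single members kept their direction and their side of the threshold, 81 lost a call, 37 gained one and 40 changed sign. A change of sign was seen only for members not past the test. The counts of members past the test are not among these values and moved more. With a log2 fold change above 1 required, the number of members past the test became 0 at 3 h, 0 at 9 h, 2 at 24 h, 0 from 3 to 9 h and 0 from 9 to 24 h. It became 4 and 0 for EMM against Serum/LIF (P10, P20) and 3 and 5 for EMM against 2i/LIF. For 2i/LIF against Serum/LIF it became 5 at P10, and at P20 2 were higher and 3 lower. For P20 against P10 it became 0, 4 and 2 in Serum/LIF, EMM and 2i/LIF. At an adjusted p under 0.05 it became 5 for P20 EMM against Serum/LIF (39.0% of all genes), 2 for Serum/LIF P20 against P10 (15.1%) and 5 for the passage difference of 2i/LIF against Serum/LIF (33.9%). Without the filter, with shares of the larger set of all genes with at least 1 count, it was 5 from 3 to 9 h (14.9%), 6 for P20 EMM against Serum/LIF (14.4%), 4 for Serum/LIF P20 against P10 (6.14%) and 5 for that same passage difference (12.4%). With only the groups compared in the fit it was 3 from 9 to 24 h (8.96%), 6 for P20 EMM against Serum/LIF (40.3%) and 2 for Serum/LIF P20 against P10 (14.2%). The cause was not tested.

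The signs that turned were of differences near 0. Library totals alone gave -0.015 for Nid1 at 3 h. For Lama5 at 9 h the value was 0.018 without the filter, 0.0054 with only the groups compared and 0.0026 by DESeq2. For Lama5 in P10 EMM against Serum/LIF it was -0.030 with DESeq2 size factors, -0.10 with library totals, -0.073 without the filter, -0.075 with at least 10 counts in every library, -0.015 with only the groups compared and -0.031 by DESeq2. For Lamb1 in P10 EMM against 2i/LIF it was 0.0018 with only the groups compared and 0.0052 by DESeq2. For Hspg2 the passage difference of EMM against 2i/LIF was -0.034 scaled without chromosomes 6 and 8. Leaving out 1 library gave 2 to 5 members past the test from 9 to 24 h, and spread values across 0 for Lama5 at 9 h (-0.036 to 0.068), Col4a2 and Hspg2 from 3 to 9 h (-0.019 to 0.12 and -0.028 to 0.088), Lamc1 from 9 to 24 h (-0.014 to 0.062), Lama5 and Col4a2 in EMM against Serum/LIF at P10 and P20 (-0.044 to 0.071 and -0.12 to 0.41), Lamb1 and Lamc1 in P10 EMM against 2i/LIF (-0.20 to 0.38 and -0.18 to 0.032), Lama5 in EMM P20 against P10 (-0.040 to 0.072), Lamc1 in 2i/LIF P20 against P10 (-0.072 to 0.14), and the passage differences of Hspg2 in EMM against 2i/LIF (-0.085 to 0.13) and of Lama5 in 2i/LIF against Serum/LIF (-0.0083 to 0.13).

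Replicate numbers did not pair the samples: same-numbered samples deviated together with correlations of -0.134 to 0.207 in the time course, with 5 of 18 over 0.1, of -0.132 to 0.28 for the numbers in the time-course sample descriptions, with 5 of 15, and of -0.212 to 0.299 in long culture, with 3 of 45. With the replicate number as a block, the Col4a1 step from 9 to 24 h lost its call (0.32, edgeR adjusted p = 0.0105) and Lamb1 in P10 EMM against 2i/LIF was 0.035. A block on the numbers in the descriptions also lost Col4a1 at 3 h (0.32, adjusted p = 0.0228). Calls also lost elsewhere were those of Lamb1, Col4a1 and Nid2 from 9 to 24 h (-0.20, 0.33 and 0.21) and of Lamb1 and Nid2 in 2i/LIF P20 against P10 (-0.94 and -0.40) with only the groups compared, Lama5 in P10 EMM against 2i/LIF with library totals (0.26) or only the groups compared (0.33), and Lamc1 in EMM P20 against P10 with library totals (-0.27) or at least 10 counts (-0.32). Over all genes, library totals moved the split of higher against lower calls from 2622 and 2916 to 1922 and 3855 at 3 h, from 2191 and 2065 to 2775 and 1661 from 3 to 9 h, from 3004 and 2997 to 2320 and 3582 in P10 and from 2176 and 2003 to 1579 and 2690 in P20 EMM against Serum/LIF, from 3366 and 3722 to 2532 and 4372 in P20 2i/LIF against Serum/LIF, and from 507 and 458 to 704 and 307 in Serum/LIF and from 2139 and 1917 to 2587 and 1418 in EMM for P20 against P10. The median over all genes was then -0.12 in P20 2i/LIF against Serum/LIF and 0.12 in EMM P20 against P10. The Serum/LIF count for P20 against P10 became 904 and 1023 without the filter, 1016 and 1069 with only the groups compared and 779 and 912 by DESeq2. With only the groups compared it became 752 and 1038 in 2i/LIF, from 2111 and 2435, and 783 and 594 from 9 to 24 h, from 1124 and 966. Depth limits Col4a1 and Col4a2 in 2i/LIF most.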
